A study of Mus musculus with 4 samples.

Results

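The peaks of 45 mouse genes of BMP and TGF-beta signalling were compared between bone mesenchymal stem cells (MSCs) of old and of young mice. A peak was taken as a member when it overlapped the body of one of these genes or the 5 kb upstream of its start, which gave 341 of 117282 peaks, with at least 1 peak at each of the 45 genes. The genes were placed in 8 groups by role, which were the TGF-beta and activin ligands, the BMP and GDF ligands, the receptors with a co-receptor, the signal-carrying Smads, the inhibitory Smads, the Id genes, the extracellular antagonists and modulators, and the latent TGF-beta binding proteins.

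Chromatin accessibility had been measured by ATAC-seq, in which a transposase inserts sequencing adapters into DNA that is not shielded by nucleosomes. The 2 old samples came from mice of 18 to 22 months and the 2 young samples from mice of 3 to 5 months, and all 4 were grown at 2% O2. Neither genetic change nor drug treatment is given in the labels, and the sources used here do not say whether each sample was 1 animal or a pool. P-values therefore measure only the spread between these samples, which may be technical. Each peak had 1 deposited value per sample, named RPKM by the authors, which was proportional to its count over the library total, with no term for peak width. Levels of different genes are therefore compared here only per kb of peak.

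Ligands of the TGF-beta family bind a pair of type I and type II receptor kinases, which phosphorylate receptor-regulated Smad proteins. BMPs act mainly through Smad1, Smad5 and Smad9 (Smad8), and TGF-beta and activins through Smad2 and Smad3, and both branches share Smad4. The pathway limits itself through the inhibitory Smads, Smad6 and Smad7, and outside the cell through antagonists such as noggin, while the Id genes are direct targets of BMP signalling. In bone, BMPs drive osteoblast differentiation, and TGF-beta is stored in the matrix in latent form, bound by some of the Ltbp proteins.

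The library totals ranged from 28259470 to 32559794 counts, and 3 counts in a peak corresponded to values between 0.921 and 1.06. The share of counts in peaks was 43.8% in old replicate 1, 50.3% in old replicate 2 and 57.5% and 62.9% in young replicates 1 and 2. By its median value over all peaks old replicate 1 stood apart, with 13.3 against 16.0, 16.6 and 18.0 in old replicate 2 and young replicates 1 and 2. Tests used RLE scaling, in which each sample is divided by the median of its ratios to a reference made of the 4 samples. All 10 genes of a list of MSC markers had a promoter peak, among them Ly6a (Sca-1) and Pdgfra, and their summed values ran from 1782 in old replicate 1 to 2402 in young replicate 2. No promoter peak was listed at the blood markers Ptprc, Itgam, Adgre1 and Cd3e, while the macrophage markers Csf1r and Cd68 had one. An endothelial list had one at 3 of 4 genes, with sums from 62.2 to 97.6 and none at Cdh5, and a muscle list at 2 of 4 genes, with sums from 10.1 to 14.3 and none at Pax7 and Ckm. The part of other cells in the results below was not tested.

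The sequences on which the largest differences stood, and those member sites that hold Smad letters, are given first, from the RefSeq copy of GRCm38.p6 (the build that mm10 names), all on the plus strand of the chromosome. The first is the middle of an intronic peak of Bmpr2, the type II BMP receptor, which had the lowest p among member peaks, and the second the middle of an intronic peak of Ltbp1, which had the next lowest. The third is a whole narrow peak within Bmp4 that had no count in either old sample. Capitals would mark the Smad palindrome GTCTAGAC or the GC-rich Smad element GGCGCC, and these 3 sequences hold neither.
Bmpr2 intron, chr1:59833751-59834050: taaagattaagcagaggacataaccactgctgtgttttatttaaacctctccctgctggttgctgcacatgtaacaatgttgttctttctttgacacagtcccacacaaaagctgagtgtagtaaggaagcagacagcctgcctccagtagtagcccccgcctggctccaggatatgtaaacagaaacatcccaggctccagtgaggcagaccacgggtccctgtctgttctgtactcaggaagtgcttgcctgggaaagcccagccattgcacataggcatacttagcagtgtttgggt
Ltbp1 intron, chr17:75027501-75027800: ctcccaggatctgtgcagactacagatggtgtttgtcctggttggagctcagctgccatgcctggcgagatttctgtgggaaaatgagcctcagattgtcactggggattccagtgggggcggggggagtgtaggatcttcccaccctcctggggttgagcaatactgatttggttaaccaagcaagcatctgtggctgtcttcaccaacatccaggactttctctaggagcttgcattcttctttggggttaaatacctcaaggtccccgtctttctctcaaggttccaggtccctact
Bmp4 intron, chr14:46385101-46385200: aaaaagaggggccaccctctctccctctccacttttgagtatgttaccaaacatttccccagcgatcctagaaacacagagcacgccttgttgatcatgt

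BMP target genes are known for a composite element in which GGCGCC is followed after 5 bases by GTCT. Over the middle 300 bases of peaks, this composite (GGCGCC, any 5 bases, then GTCT, searched on both strands, and containing the GC-rich element) was found in 25 of 113746 peaks of at least that width. Among 333 member peaks, 1 held it, the peak of Id3, where it lay 1296 bases into the gene and outside its annotated exons, at chr4:136144793-136144807. In the 2000 bases around the annotated start (1500 before and 500 after), it was found at 0 of the 45 genes and at 55 of 21938 protein-coding genes (0.251%). In the sequences that follow, capitals mark the fixed bases of the composite, the palindrome or the GC-rich element. The Smad6 palindrome spans the annotated start of that gene, so only part of it lies in the first exon and the rest is upstream.
Id3 intron, composite, chr4:136144733-136144867: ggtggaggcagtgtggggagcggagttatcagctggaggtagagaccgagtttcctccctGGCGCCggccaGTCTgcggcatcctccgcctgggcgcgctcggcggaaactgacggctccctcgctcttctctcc
Smad6 first exon, palindrome, chr9:64022045-64022074: atcatatgccaGTCTAGACactttggcggc
Tgfb2, palindrome, chr1:186622357-186622484: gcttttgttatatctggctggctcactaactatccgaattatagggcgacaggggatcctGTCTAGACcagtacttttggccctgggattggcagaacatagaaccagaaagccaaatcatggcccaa
Bmpr1b, palindrome, chr3:141857254-141857381: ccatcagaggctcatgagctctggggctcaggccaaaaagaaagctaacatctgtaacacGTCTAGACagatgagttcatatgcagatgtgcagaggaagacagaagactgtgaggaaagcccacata
Id2 gene outside exons, GC-rich element, chr12:25096258-25096383: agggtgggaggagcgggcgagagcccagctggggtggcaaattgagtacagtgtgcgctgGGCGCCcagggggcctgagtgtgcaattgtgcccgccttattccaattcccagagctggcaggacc
Id4 upstream, GC-rich element, chr13:48260908-48261033: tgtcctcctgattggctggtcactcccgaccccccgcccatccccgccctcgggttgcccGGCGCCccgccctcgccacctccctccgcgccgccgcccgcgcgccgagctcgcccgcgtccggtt

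The GC-rich element GGCGCC was found in 12 of 37 RefSeq promoters of 31 member genes (32.4%), against 11.9% of 32851 RefSeq promoters, which span 250 bases before to 50 bases after a start. In the wider 2000 bases it was found at 32 of 45 member genes (71.1%) and at 35.8% of all protein-coding genes. The palindrome was in 1 of 37 member promoters, that of Smad6, and in 0.213% of all RefSeq promoters. Its share of peak centres was 0.601% of member peaks (2 of 333, at Tgfb2 and Bmpr1b) and 0.311% of all peaks. At the middle of the peaks, GGCGCC stood in 3.60% of member peaks and 3.74% of all. The AP-1 letters TGANTCA stood in 17.1% of member peaks and 21.4% of all, the TEAD letters GGAATG in 16.2% and 20.9%, and the Runx letters TGTGGT in 27.6% and 26.0%. The median GC content of peak centres was 46.3% in member peaks and 46.7% in all peaks. A match of letters is a description of these windows and not a binding site.

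The 45 genes were accessible in every sample. Of them, 44 had a promoter peak (a peak within 1 kb of an annotated start), or 97.8%, against 88.6% of 17308 protein-coding genes with any peak. The gene with none was Bmp4, whose 2 peaks had their centres 3.35 kb and 5.40 kb from the nearest annotated start. The nearer edge of the wider one lay 1.47 kb from the start of the gene. Member genes held a median of 3 peaks and 10.8 kb of peak, and all genes with a peak a median of 2 peaks and 5.40 kb. Ltbp1 held 51 peaks, Bmper 31 and Acvr1 25, and 10 genes held 1 peak each. Member peaks were wide more often than peaks at large, with 11 of 341 (3.23%) over 10 kb wide against 0.892% of all peaks. The widest was a peak of 63.4 kb over most of Smad6, at chr9:63940101-64003500, and the next a peak of 43.8 kb over the whole of Smad7, at chr18:75362501-75406300. Per kb of peak, the summed value averaged over the 4 samples was 65.3 at Smad2, 58.2 at Id2, 47.3 at Id3, 46.3 at Id1 and 40.4 at Tgfbr1, the type I TGF-beta receptor. The BMP and GDF ligands lay at the other end, between 10.0 at Bmp3 and 17.2 at Bmp2. That range was shared by Ltbp2 (13.7), Nbl1 (14.7), Smad1 (15.1) and Bmper (15.6), which belong to other role groups. The median was 20.1 per kb over member genes and 23.7 over all genes with a peak.

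**Figure D1:**
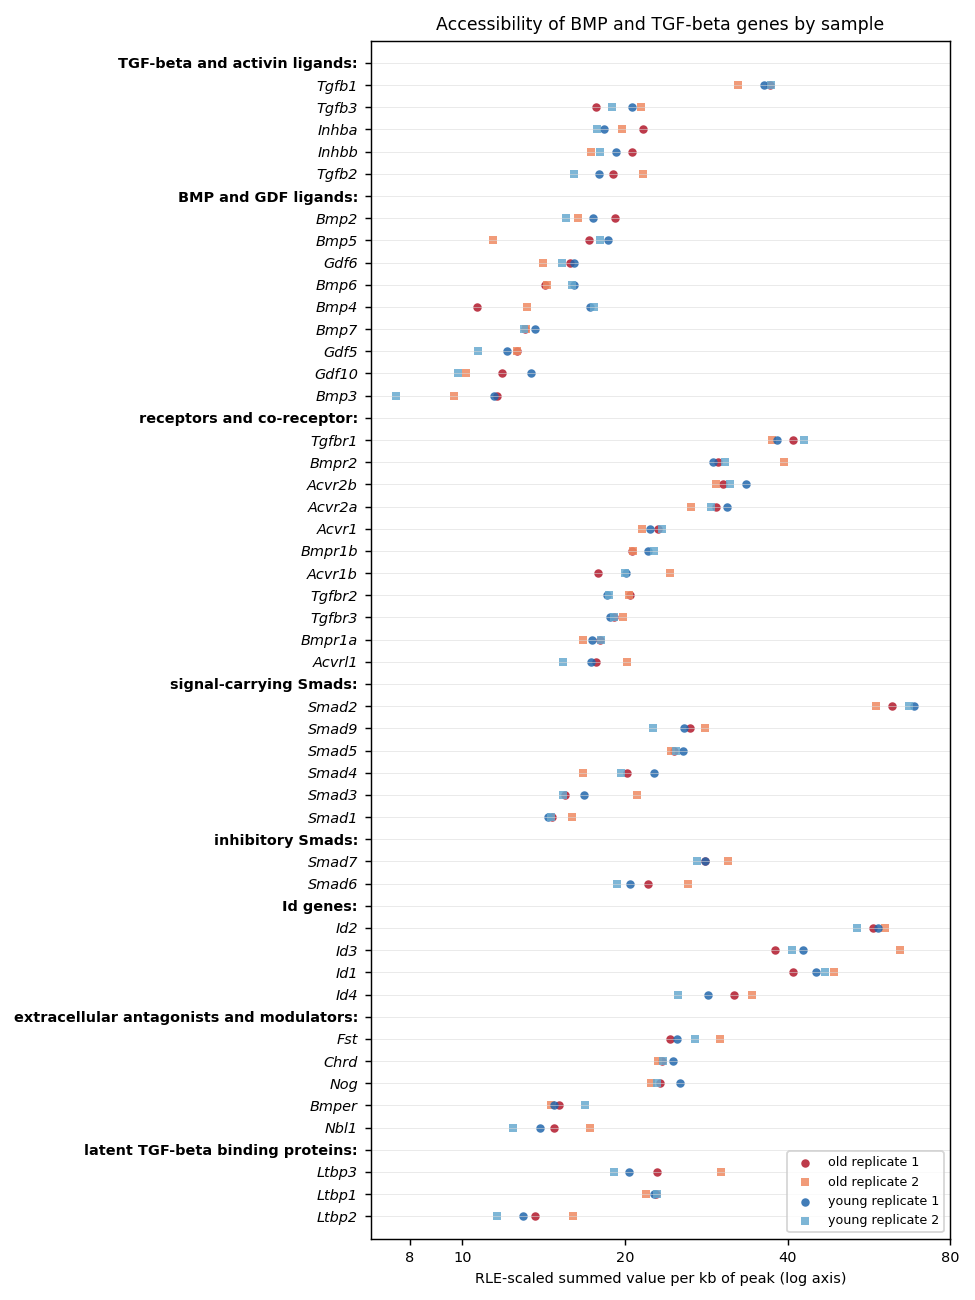
RLE-scaled summed value per kb of peak (log axis) for each of the 45 genes in each of the 4 samples (red, old; blue, young; circles, replicate 1; squares, replicate 2), grouped by role. Smad2, Id2, Id3 and Id1 sit highest and the BMP and GDF ligands low, and the old and young points of most genes lie close together, while Bmp4 has both old samples below both young ones and Ltbp3 has both above.

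On the scale of the deposited values, most peaks of these genes had lower values in old MSCs, as did most peaks in general. Of member peaks, 74.5% had a lower mean log2 value in old than in young samples, against 74.6% of all peaks, and the median log2 fold change was -0.23 in member peaks and -0.27 in all. By gene sum, 95.6% of member genes and 89.6% of all genes with a peak had a lower value in old MSCs, and these differences between members and all were not tested. A lower value can come from fewer cells with an open site or from less opening per cell, which bulk samples cannot tell apart. It can also come from a smaller share of the library's counts in peaks. That share was 43.8% and 50.3% in old and 57.5% and 62.9% in young samples. Which of these applies was not tested. Old replicate 2 was close to the young samples on this scale (median log2 fold change of member peaks -0.03 against young replicate 1 and -0.09 against young replicate 2), and old replicate 1 was not (-0.33 and -0.40). After RLE scaling the medians were 0.06 in member peaks and 0.00 in all peaks, and the share with a lower value in old MSCs was 44.3% among member peaks and 49.9% overall. Taken against each young sample in turn, the scaled member medians were 0.04 and 0.06 for old replicate 1 and 0.05 and 0.08 for old replicate 2. All further log2 fold changes are RLE-scaled, old minus young, with a pseudocount of 1.

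No member peak differed at an adjusted p under 0.01 (limma, Benjamini-Hochberg over all 117282 peaks), in either direction, where 0.0256% of all peaks were called higher and 0.0307% lower in old MSCs. At an adjusted p under 0.05, 1 member peak was called higher (0.351% of all peaks) and 1 lower (0.771% of all). At an unadjusted p under 0.05, 27 member peaks were higher (7.92%, against 7.49% of all peaks) and 20 were lower (5.87%, against 8.87% of all). With limma-voom on counts recovered from the values, 0 member peaks passed 0.01 (0.0418% of all peaks were higher and 0.081% lower), and at 0.05 there were 3 higher (0.88%, against 0.472% of all) and 0 lower (0.904% of all). The old and young samples did not overlap, with old higher, at 96 member peaks (28.2%, against 23.2% of all peaks), and with old lower at 61 (17.9%, against 24.2%). On the deposited scale the corresponding numbers were 20 higher (5.87%, against 7.56% of all peaks) and 138 lower (40.5%, against 43.5%). Of the member peaks, 30 also overlapped another gene or its upstream 5 kb, among them the promoter peaks of Acvr1, Bmpr1a, Tgfb2, Tgfb3, Inhba, Ltbp2 and Smad7. The number of calls depended on old replicate 1. Without it, 16 member peaks were higher (4.69%, against 3.35% of all) and 7 were lower (2.05%, against 5.44% of all) at an adjusted p under 0.01. That fit compares a single old sample with the young pair and assumes that it varies as they do. Without old replicate 2, 0 were higher (0.393% of all) and 2 lower (0.587%, against 1.05% of all), and on the deposited scale 0 were higher (0.0443% of all) and 1 lower (0.293%, against 1.14% of all). With the replicate number as a block, 1 member peak was higher (0.293%, against 0.309% of all) and 1 was lower (0.293%, against 0.773% of all).

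**Figure D2:**
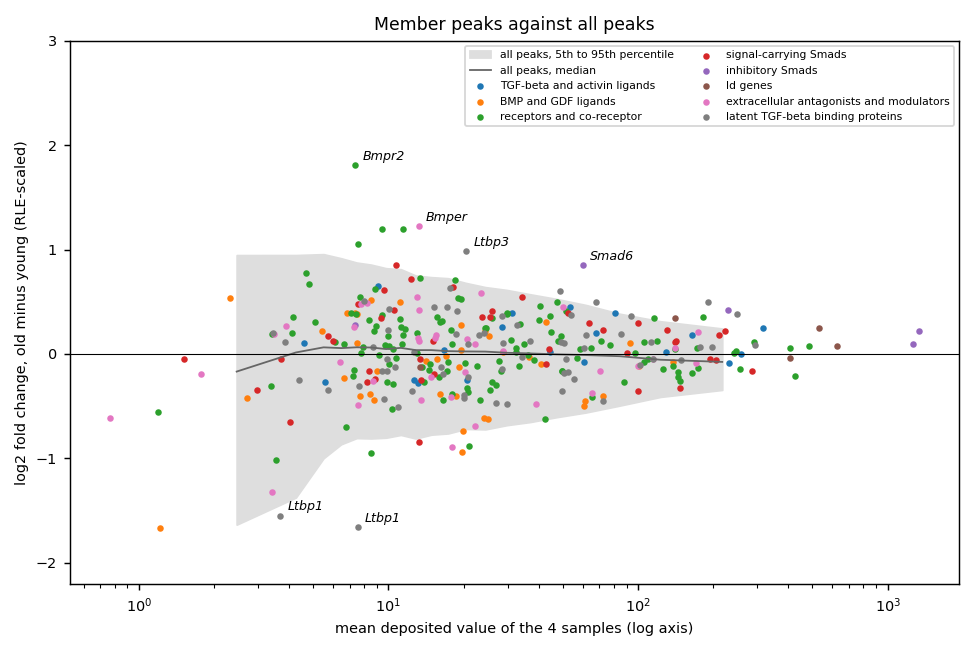
Log2 fold change of the 341 member peaks (old minus young, RLE-scaled) against their mean deposited value (log axis), coloured by role, with the median and the 5th to 95th percentile of all peaks at the same level in grey. Most member peaks lie inside the grey band, and the 6 with the lowest adjusted p are named, from Bmpr2 (1.81) to Ltbp1 (-1.66).

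Summed over all peaks of a gene, 0 of 45 genes differed at an adjusted p under 0.01, where 0.0116% of 17308 genes were called higher and 0% lower. At an unadjusted p under 0.05, 3 genes were higher (6.67%, against 3.58% of all genes) and 1 was lower (2.22%, against 4.74%), and limma-voom also called 0 at 0.01. The 3 higher genes were Ltbp3, Smad6 and Ltbp2, and the lower one was Bmp4. The median log2 fold change of the gene sums was 0.02 over member genes and -0.01 over all, with 23 member genes above 0 and 22 below. Without old replicate 1, 8 gene sums were higher (12.1% of all genes were) and 2 lower (10.3% of all), with Id3, Ltbp3, Smad6, Smad3, Ltbp2, Tgfb2, Nbl1 and Bmpr2 above and Bmp5 and Smad4 below.

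Among the BMP and GDF ligands, which are secreted factors, the differences with an unadjusted p under 0.05 were all towards lower values in old MSCs. Of 39 peaks at 9 genes, 8 were lower and 0 higher at that level, and the median log2 fold change was -0.08. Over all peaks, 8.87% were lower and 7.49% higher at that level. These shares also stand beside the counts at that level for single genes and role groups below. Bmp4, which acts in bone formation and limb patterning, had a peak of 4.0 kb over coding sequence and UTR at chr14:46385201-46389200, with values of 35.7 and 54.7 in old and 73.2 and 80.2 in young samples. Both old samples lay below both young ones (log2 fold change -0.50, SE 0.200, adjusted p = 0.221). This peak also overlaps the gene model Gm15222, and strand was not used. The narrow peak beside it, of which the sequence is given above, had 0 counts in both old samples and 7 in each young one. Against a limit of 3 counts per old library, it was at least 1.99-fold lower in old MSCs after RLE scaling (adjusted p = 0.105). The sum over Bmp4 was 35.7 and 54.7 in old and 75.7 and 82.6 in young samples (log2 fold change -0.54, SE 0.192, adjusted p = 0.553).

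Bmp5, which acts in skeletal development, had a pair of lower peaks within its body. An intronic one at chr9:75832301-75833700 had values of 12.2 and 10.7 in old and 28.3 and 27.5 in young samples (log2 fold change -0.94, SE 0.270, adjusted p = 0.0874). That the old values lay below the young ones was a condition for naming this peak. A second, over coding sequence at chr9:75886601-75887700, had 15.03 and 10.7 in old and 27.6 and 25.8 in young samples (log2 fold change -0.74, SE 0.285, adjusted p = 0.203). Without old replicate 1 its log2 fold change was -1.11, and without old replicate 2 it was -0.37. At Bmp6, 3 of 13 peaks, all intronic, were lower at an unadjusted p under 0.05, with log2 fold changes between -0.63 and -0.45. Its densest peak, at chr13:38410001-38411900 and 53.0 per kb, had values of 71.0, 104, 114 and 114 in old replicates 1 and 2 and young replicates 1 and 2, and the groups overlapped after scaling. Bmp2, the ligand most used to induce osteoblasts, had 1 peak, over its promoter at chr2:133550001-133555400, with values of 84.6 and 89.4 in old and 101 and 96.9 in young samples. Its log2 fold change was 0.10 after scaling, with a 95% interval from -0.27 to 0.47, which spans 0. Gdf6, a ligand of joint and skull formation, had the lowest log2 fold change among the strongest promoter peaks of each gene (-0.40, SE 0.188, adjusted p = 0.297), with 52.4 and 58.4 in old against 91.3 and 88.1 in young samples.

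The TGF-beta and activin ligands had 1 peak of 19 with an unadjusted p under 0.05, an intronic peak of Tgfb2. Tgfb1, the main TGF-beta of bone matrix, had 1 peak, at chr7:25684701-25691100, with 194 and 210 in old and 249 and 274 in young samples (log2 fold change -0.08, 95% interval -0.38 to 0.21). That peak also overlaps B9d2. The promoter peak of Tgfb2 had 131 and 189 in old and 184 and 156 in young samples (log2 fold change 0.19, 95% interval -0.16 to 0.53). As deposited, old replicate 2 was the highest of the samples in this gene and old replicate 1 the lowest. After RLE scaling, the sums over the gene were 489 and 556 in old and 460 and 413 in young samples. The promoter peak of Tgfb3 had 181 and 289 in old and 282 and 278 in young samples (log2 fold change 0.00, 95% interval -0.31 to 0.31). Inhba, which encodes the activin A subunit, had a promoter peak with values of 283 and 340 in old and 309 and 329 in young samples (log2 fold change 0.25, SE 0.126, adjusted p = 0.336).

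The receptors held 129 peaks at 11 genes, of which 9 were higher and 4 lower in old MSCs at an unadjusted p under 0.05. Over all peaks, 7.49% were higher and 8.87% lower at that level. The largest difference was in Bmpr2, which encodes the type II receptor for BMPs. Its intronic peak at chr1:59833601-59834200, 70.5 kb into the gene, had values of 8.74 and 14.4 in old and 3.18 and 3.06 in young samples, which were 25, 47, 9 and 9 counts. Peaks named for a large difference were chosen so that old and young samples did not overlap after scaling. In this one the old pair differed more than the young pair. The log2 fold change was 1.81 (SE 0.355, 3.51-fold, adjusted p = 0.0231), and limma-voom gave an adjusted p of 0.0258. A second intronic peak of Bmpr2, at chr1:59826101-59827200, had 9.44 and 22.1 in old and 8.14 and 6.12 in young samples (log2 fold change 1.201, SE 0.341, adjusted p = 0.0844). Here old replicate 1 lay close to the young samples and old replicate 2 far above them, and the log2 fold change was 0.77 without old replicate 2. The promoter peak of Bmpr2 had 124 and 198 in old and 173 and 196 in young samples (log2 fold change 0.05, 95% interval -0.28 to 0.39). Whether the downstream peaks differed from the promoter in their change was not tested.

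Bmpr1a, a type I BMP receptor, held peaks in both directions. Its intronic peak at chr14:34497201-34498000 had 8.39 and 11.4 in old and 6.02 and 4.42 in young samples (log2 fold change 1.05, SE 0.342, adjusted p = 0.128), and its promoter peak 134 and 139 in old and 181 and 201 in young samples (log2 fold change -0.19, 95% interval -0.51 to 0.14). Acvr1b, the activin type I receptor ALK4, had an intronic peak at chr15:101209901-101210700 with 11.9 and 12.9 in old and 9.20 and 3.74 in young samples (log2 fold change 1.196, SE 0.371, adjusted p = 0.111). The young pair of that peak differed more than the old pair, and the log2 fold change was 0.61 without young replicate 2 and 1.78 without young replicate 1. Acvr1, the type I receptor ALK2, had its lowest peak in an intron at chr2:58524601-58525500, with 4.90 and 4.30 in old and 8.85 and 16.0 in young samples (log2 fold change -0.95, SE 0.355, adjusted p = 0.185, and -0.61 without young replicate 2). At its promoter peak the values were 334 and 375 in old and 475 and 526 in young samples (log2 fold change -0.21, 95% interval -0.46 to 0.04).

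Tgfbr2, the type II TGF-beta receptor, had an intronic peak at chr9:116160601-116161600 with 12.9 and 12.3 in old and 26.2 and 33.0 in young samples (log2 fold change -0.88, SE 0.262, adjusted p = 0.0970). Another intronic peak of the same gene, at chr9:116150401-116154200, leaned the other way, with 153 and 223 in old and 162 and 193 in young samples (log2 fold change 0.35, SE 0.152, adjusted p = 0.257). Its promoter peak had 109 and 151 in old and 155 and 149 in young samples (log2 fold change 0.05, 95% interval -0.28 to 0.38). Bmpr1b, a type I BMP receptor of cartilage, had a weak intronic peak at chr3:142105801-142106400 with 3.50 and 5.22 in old and 9.55 and 8.84 in young samples (log2 fold change -0.70, SE 0.350, adjusted p = 0.329). The densest receptor peak was another intronic peak of Bmpr1b, at chr3:141940401-141941900 and 64.9 per kb, with 70.3 and 107 in old and 101 and 110 in young samples and a log2 fold change of 0.01. Acvrl1, the type I receptor ALK1 of blood vessels, had the highest log2 fold change among the strongest promoter peaks of the 44 genes (0.50, SE 0.215, adjusted p = 0.255), with 42.3 and 60.5 in old and 47.8 and 39.4 in young samples. Of the endothelial list given above, Tek had 22.0 and 28.3 in old against 53.4 and 49.3 in young samples as deposited, Pecam1 had 15.03 and 21.5 against 14.9 and 20.1, and Kdr had 25.2 and 29.2 against 25.5 and 28.2.

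The signal-carrying Smads held 42 peaks at 6 genes, with a median log2 fold change of 0.12. At an unadjusted p under 0.05, 4 were higher and 1 was lower (7.49% and 8.87% of all peaks were). In Smad1, which carries BMP signals, 3 of 10 peaks were higher at that level, all in introns. The one with the largest difference, at chr8:79374401-79375600, had 10.8 and 15.4 in old and 7.43 and 9.18 in young samples (log2 fold change 0.85, SE 0.303, adjusted p = 0.166). Its promoter peak showed no such lean, with a log2 fold change of -0.05 and a 95% interval from -0.36 to 0.25. Smad9, which also carries BMP signals, had an intronic peak at chr3:54763901-54764900 with 6.64 and 9.52 in old and 18.8 and 18.0 in young samples (log2 fold change -0.85, SE 0.290, adjusted p = 0.148). The promoter peak of Smad2 was the densest of all member peaks, at 77.2 per kb, with 225 and 258 in old and 323 and 337 in young samples (log2 fold change -0.16, SE 0.131, adjusted p = 0.568). Smad4, the Smad shared by both branches, had 122 and 110 in old and 179 and 177 in young samples at its promoter (log2 fold change -0.33, SE 0.173, adjusted p = 0.356).

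At the inhibitory Smads, all 5 peaks had log2 fold changes above 0, and 3 of them, all in Smad6, had an unadjusted p under 0.05. Smad6 mainly restrains BMP receptors. Its peak at chr9:64015901-64019700, within the gene and over an exon without coding sequence, had 53.5 and 92.8 in old and 47.1 and 47.6 in young samples (log2 fold change 0.85, SE 0.210, adjusted p = 0.0548, and 0.0393 with limma-voom). The promoter peak, which contains the palindrome shown above, had 176 and 311 in old and 211 and 216 in young samples (log2 fold change 0.42, SE 0.161, adjusted p = 0.198), and its log2 fold change was 0.67 without old replicate 1 and 0.17 without old replicate 2. The wide peak over the rest of the gene had 1093 and 1534 in old and 1345 and 1370 in young samples (log2 fold change 0.22, SE 0.0942, adjusted p = 0.2502). In all 3 peaks old replicate 2 was the highest sample, and in the promoter and the wide peak the deposited value of old replicate 1 was the lowest. Smad7, which restrains both branches, had 1007 and 1374 in old and 1324 and 1374 in young samples over its single peak (log2 fold change 0.09, 95% interval -0.10 to 0.29).

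The Id genes, which encode inhibitors of basic helix-loop-helix factors, were among the most accessible members and showed small differences. Id1 had 294 and 435 in old and 426 and 476 in young samples over a peak of 8.8 kb (log2 fold change -0.04, 95% interval -0.31 to 0.22). Id2 had 507 and 662 in old and 680 and 668 in young samples (log2 fold change 0.07, 95% interval -0.16 to 0.30). Id3, whose peak holds the composite element, had 346 and 733 in old and 513 and 525 in young samples (log2 fold change 0.25, SE 0.170, adjusted p = 0.496). The pair of old samples of Id3 spanned both young ones, with the lowest and the highest value of the 4. Without old replicate 1 the log2 fold change of the Id3 peak was 0.63, and without old replicate 2 it was -0.14. Id4 had 122 and 166 in old and 141 and 132 in young samples at its promoter (log2 fold change 0.35, SE 0.160, adjusted p = 0.288), a peak that also overlaps the gene models A330033J07Rik and Gm49291.

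The extracellular antagonists and modulators held 37 peaks, 31 of them in Bmper, which encodes a secreted protein that binds BMPs. In Bmper, 2 peaks were higher and 4 lower at an unadjusted p under 0.05. An intronic peak at chr9:23385901-23387000 had 12.2 and 24.0 in old and 8.85 and 7.82 in young samples (log2 fold change 1.23, SE 0.308, adjusted p = 0.0577, and 0.0464 with limma-voom). Another intronic peak, at chr9:23345301-23346100, had 10.1 and 11.1 in old and 21.2 and 29.2 in young samples (log2 fold change -0.89, SE 0.272, adjusted p = 0.107). The densest peak of the group, at chr9:23407101-23408400 and 30.03 per kb, had 26.6 and 30.4 in old and 41.4 and 57.8 in young samples (log2 fold change -0.48, SE 0.224, adjusted p = 0.294, and -0.30 without young replicate 2). Summed over the gene, the peaks gave a log2 fold change of -0.09 (SE 0.118). Nog, which encodes the BMP antagonist noggin, had 136 and 163 in old and 196 and 190 in young samples over its single peak (log2 fold change -0.08, 95% interval -0.40 to 0.23), which also overlaps Gm2018.

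For the group of latent TGF-beta binding proteins, the log2 fold changes of the gene sums were -0.03 at Ltbp1, 0.27 at Ltbp2 and 0.41 at Ltbp3. Ltbp1 had the lowest member peak with a mean value of 5 or more, an intronic peak at chr17:75027301-75028000 and 22.1 kb from a start. It had 1.75 and 3.69 in old and 13.4 and 11.2 in young samples, which were 5, 12, 38 and 33 counts. The log2 fold change was -1.66 (SE 0.371, 3.16-fold lower, adjusted p = 0.0383), and limma-voom gave an adjusted p of 0.0556. The other 50 peaks of Ltbp1 held 2 more with an unadjusted p under 0.05, both lower, while its densest peak, at chr17:75109501-75113800 and 68.4 per kb, had 242 and 306 in old and 311 and 318 in young samples (log2 fold change 0.08, SE 0.129).

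In Ltbp2, 10 of 11 peaks had log2 fold changes above 0, and 4 were higher at an unadjusted p under 0.05. Its promoter peak, of 12.3 kb, had 170 and 240 in old and 185 and 166 in young samples (log2 fold change 0.49, SE 0.153, adjusted p = 0.110), the lowest adjusted p among those 44 promoter peaks. Ltbp3 had 3 peaks, all with old above young after scaling. Over coding sequence, at chr19:5748901-5750100, the values were 19.2 and 32.6 in old and 17.7 and 12.6 in young samples (log2 fold change 0.98, SE 0.278, adjusted p = 0.0836). At its promoter, the values were 194 and 328 in old and 230 and 243 in young samples (log2 fold change 0.38, SE 0.153, adjusted p = 0.220). The gene sums were 243 and 397 in old and 284 and 285 in young samples for Ltbp3 (log2 fold change 0.41, SE 0.153, adjusted p = 0.567), and the deposited sum of old replicate 1 was again the lowest of the 4.

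**Figure D3:**
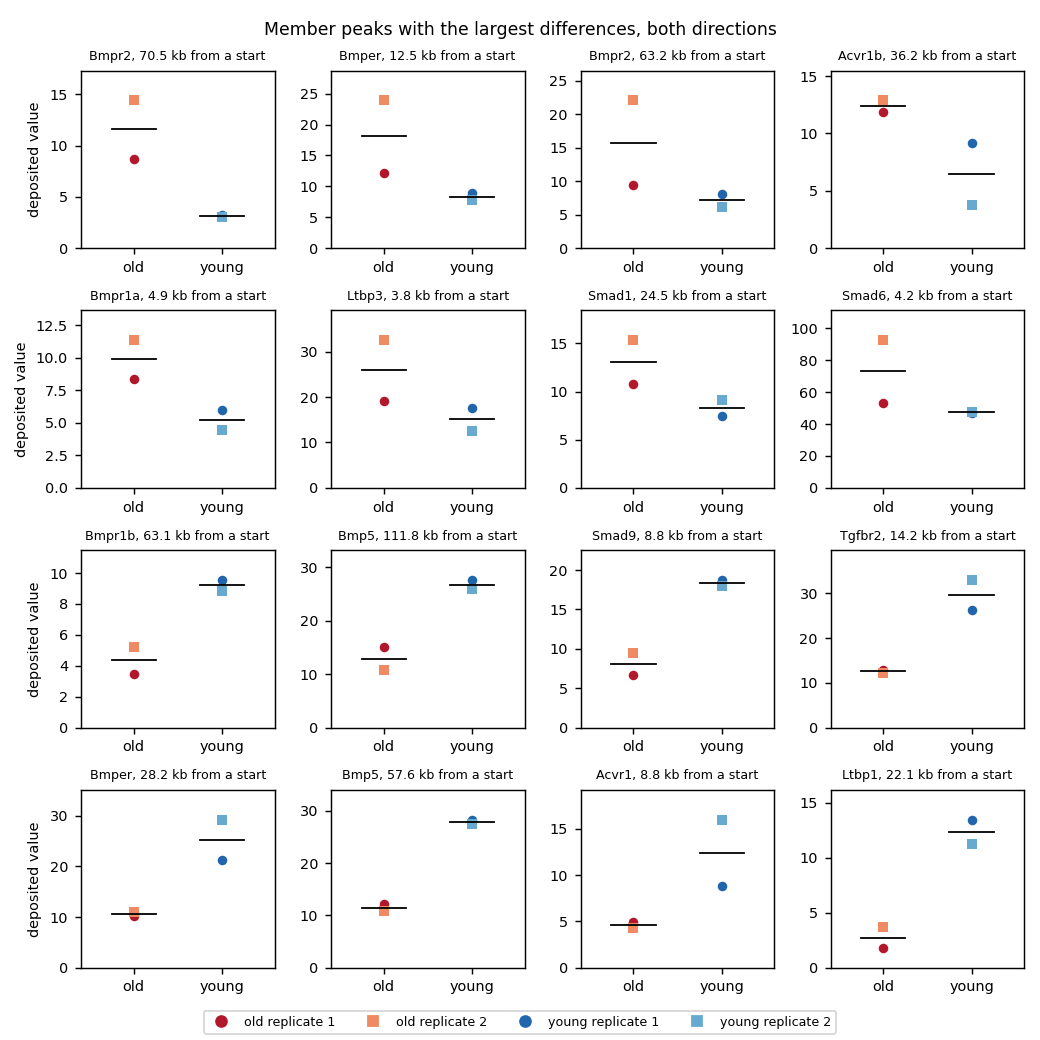
Deposited values of the 8 member peaks with the largest log2 fold change in each direction, in old and young samples (circles, replicate 1; squares, replicate 2; lines, group means; axes start at 0), each named by gene and by the distance from its centre to the nearest annotated start. In the upper 2 rows old is above young, and in several of these old replicate 2 stands well above old replicate 1, while in the lower 2 rows both old samples lie below both young ones.

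Promoters as a group differed little. The strongest promoter peaks of the 44 genes had log2 fold changes between -0.40 and 0.50 with a median of 0.02, 23 above 0 and 21 below, and 6 had an unadjusted p under 0.05, as did 9.65% of all promoter peaks. In 42 of the 44, the 95% interval lay within 1 log2 unit of 0, and in 24 within 0.5. Of the 47 member peaks with an unadjusted p under 0.05, 31 (65.96%) were intronic and outside promoters, 15 higher and 16 lower, and such peaks made up 61.9% of all member peaks. By annotation, the median log2 fold change was 0.06 in 58 member promoter peaks, 0.11 in 61 exonic peaks outside promoters and 0.02 in 211 intronic ones. Over all peaks it was -0.03 in promoter, 0.11 in exonic and 0.02 in intronic peaks.

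**Figure D4:**
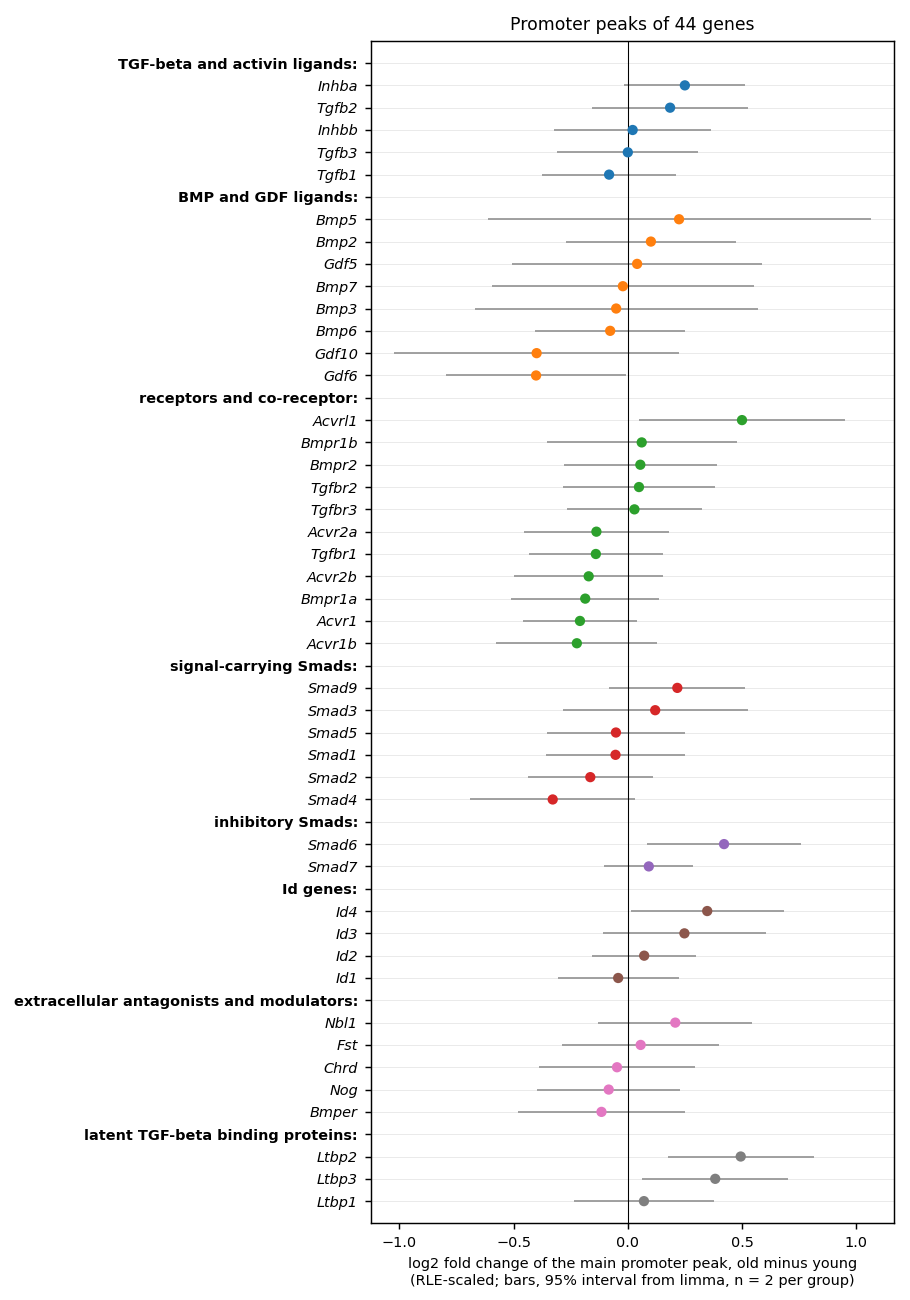
Log2 fold change (old minus young, RLE-scaled) of the strongest promoter peak of 44 genes, with 95% intervals from limma (2 samples per group), grouped and coloured by role. The points lie between -0.40 (Gdf6) and 0.50 (Acvrl1), and the intervals of Acvrl1, Smad6, Id4, Ltbp2 and Ltbp3 lie above 0 and that of Gdf6 below it before adjustment over all peaks.

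**Figure D5:**
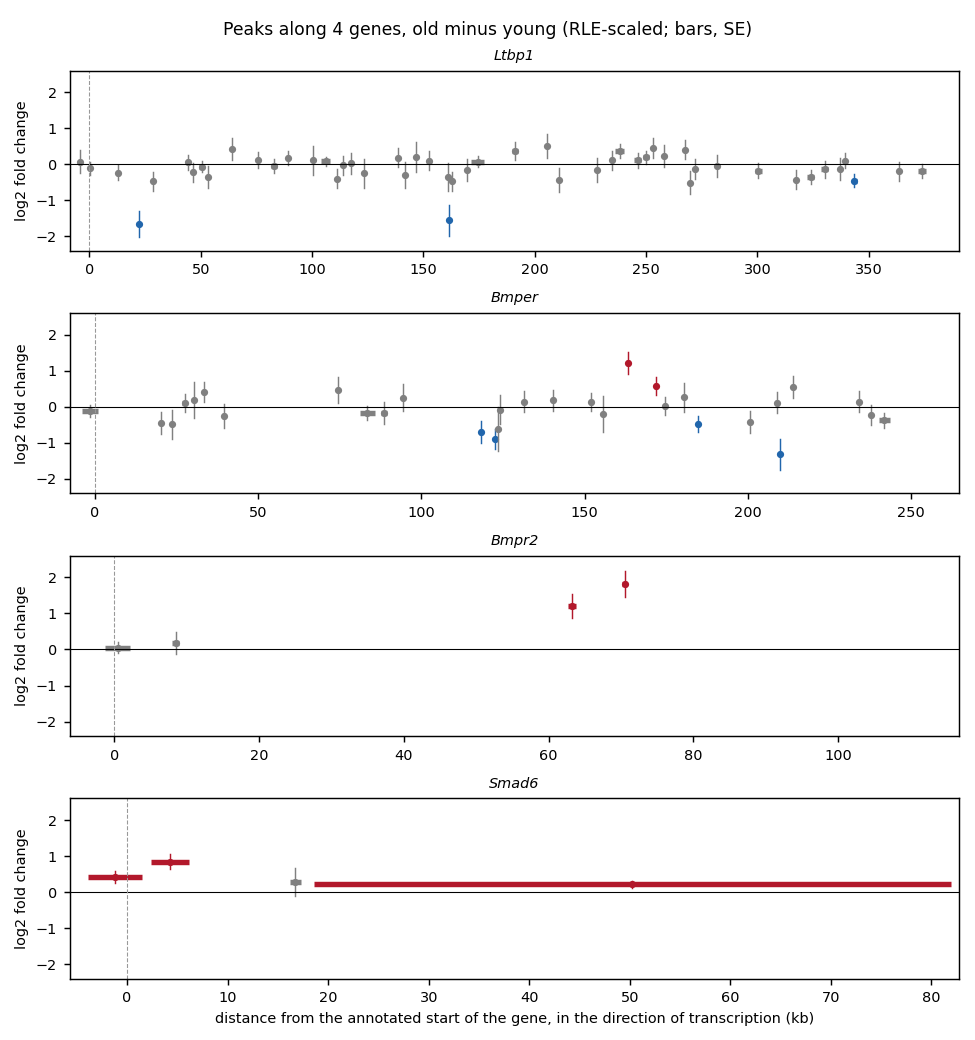
Log2 fold change (old minus young, RLE-scaled; vertical bars, SE; horizontal bars, width of the peak) of every peak along Ltbp1, Bmper, Bmpr2 and Smad6, by distance from the start of the gene in kb. Red marks higher and blue lower at an unadjusted p under 0.05, and the coloured peaks are all blue in Ltbp1, mixed in Bmper and all red in Bmpr2 and Smad6.

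A list of 63 other genes of the pathway, including other ligands, receptors, antagonists, regulators of Smads and well-known targets, had peaks at 60 genes. Of their 213 peaks, 0 were higher and 0 lower at an adjusted p under 0.01. At an unadjusted p under 0.05 there were 19 higher and 13 lower, where 7.49% of all peaks were higher and 8.87% lower. The lowest adjusted p on that list was at the peak over Thbs1, whose product thrombospondin-1 can activate latent TGF-beta, a gene named after its values were seen. It had 1701 and 2218 in old and 2978 and 3852 in young samples (log2 fold change -0.51, SE 0.0886, adjusted p = 0.0146), so each old sample lay below each young one. By gene sums, 0 of the 60 genes passed 0.01, with 1 higher and 5 lower at an unadjusted p under 0.05. Over all genes with a peak, 3.58% were higher and 4.74% lower at that level.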

How the data were processed

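ATAC-seq values of 2 old and 2 young samples were used. The deposited values, named RPKM by the authors, were treated as a score: each equalled a whole count times 10000000 over the library total, in 100% of values, and was not divided by peak width. Per the labels the submitters used Bowtie2, Picard and mm10; the paper's methods give bowtie2, Picard and chromstaR for hypoxia- and normoxia-cultured cells, and do not describe these samples. Intervals reflect the 4 samples only.

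Values were divided by RLE factors, log2(value + 1) was taken, and limma 3.58.1 in R 4.3.3 (trend, robust) was fitted to all 117282 peaks and to 17308 gene sums, with Benjamini-Hochberg adjustment and a threshold of 0.01 as in the paper. The smallest exact permutation p that 2 against 2 samples allow is 0.33. Counts were simulated for all peaks with the same dispersion, and changes were planted only in peaks above a minimum mean count. Of these, 63% of peaks changed by 1 log2 unit and 100% of those changed by 2 were recovered. The shares do not apply to weaker peaks, such as the intronic Bmpr2 and Ltbp1 peaks, and no sample was made to deviate as old replicate 1 did. Genes came from GENCODE vM21. Python 3.11.15 and matplotlib 3.10.9 were used for summaries and figures.

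The members, gene lists and tests were chosen with earlier results of these data known. Peaks named were any past the threshold (0), the 8 with the largest difference in each direction with a mean value of at least 5 and the same direction in all 4 pairs, the strongest promoter peak per gene and the densest per role. Other members are described by counts, or were named after their values were seen. Alternatives covered scaling, pseudocount, a filter, moderation, a replicate block, other thresholds and members, leaving out each sample, and limma-voom, added after seeing the data. Results of some listed genes are not reported here.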

Additional observations from a re-analysis of the deposited data

How the results depend on the processing

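Scaling decided the overall direction. The median log2 fold change of member peaks was 0.056 with RLE factors, 0.066 with quantile normalization, 0.12 with equal total signal and -0.23 as deposited, and that of member promoter peaks 0.055 with RLE factors and -0.23 as deposited. The share of member peaks lower in old MSCs was 74.5% as deposited, 44.3% with RLE factors and 43.7% after quantile normalization. Leaving out 1 sample, it ran from 57.2% (without old replicate 1) to 85.6% as deposited, and the medians from 0.032 to 0.049 (RLE), from 0.01 to 0.10 (promoters) and from -0.38 to -0.09 (deposited).

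Calls at 0.01 rested on few settings. Member peaks called numbered 0 higher and 1 lower (Ltbp1, 0.293%, against 1.14% of all peaks) as deposited and 1 in each direction with a 0.05 threshold. With the replicate number as a block there was 1 in each direction, the Bmpr2 (adjusted p = 0.00129) and Ltbp1 (0.00518) intronic peaks, against 0.309% and 0.773% of all peaks. Deviations of same-numbered samples correlated at -0.0993 and the labels give no pairing, so the block is not a paired design. Leaving out 1 sample gave 0 to 16 higher and 0 to 7 lower peaks, and 0 to 8 higher and 0 to 2 lower gene sums, the highest counts each without old replicate 1, with 2 lower peaks (0.587%, against 1.05% of all) without old replicate 2. The other settings run gave 0 calls among member peaks. edgeR on recovered counts was not run. The intronic Bmpr2 and Ltbp1 peaks kept their direction in each setting that tested them, and the filter on low values removed both.

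Near 0, directions turned. As deposited, the promoter peaks gave Bmp2 -0.19, Id2 -0.22, Id3 -0.041, Smad7 -0.20, Tgfb2 -0.10 and Tgfbr2 -0.24, and the dense peaks of Bmpr1b -0.28 and Ltbp1 -0.21. Id1 was 0.0070 with quantile normalization and 0.026 with equal total signal, and Tgfb3 0.061, 0.068 and, with limma-voom, 0.019. Leaving out 1 sample turned Bmp2 (-0.013 to 0.21), dense Bmpr1b (-0.14 to 0.16), Id1 (-0.17 to 0.086), Id3 (-0.14 to 0.63), Tgfb1 (-0.18 to 0.015), Tgfb3 (-0.18 to 0.18) and Tgfbr2 (-0.033 to 0.13). The depth limits peaks such as the Bmpr2 one, with 9 counts in each young sample. The causes were not tested.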
